A study of Mus musculus with 6 samples.

Results

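Matricellular proteins are secreted into the extracellular matrix and act on cells through receptors more than as structural fibres. The 9 genes described here are the thrombospondin genes Thbs1, Thbs2 and Thbs3, the tenascin gene Tnc, Sparc, the osteopontin gene Spp1, the periostin gene Postn, Tgfbi and the fibronectin gene Fn1. They were chosen by symbol, with earlier results of these data known, as rows of the deposited table of counts. All 9 were found there, of 55334 gene IDs in all. The libraries came from Lewis lung carcinoma (LLC), a mouse lung cancer line, whose cells carried green fluorescent protein (GFP). One group carried a scrambled guide RNA (Scramble, 3 libraries) and the other a guide RNA against Jag2, the gene of the Notch ligand Jagged2 (JAG2KO, 3 libraries named JagKO2, JagKO3 and JagKO4 in the table). In both groups the cells were grown as tumours in the flanks of mice and sorted at endpoint as GFP-positive, CD45-negative and DAPI-negative. The labels do not state mouse strain or age, whether a group was 1 clone, or whether each library came from its own mouse, so the p-values measure the spread between these libraries, which may be technical.

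Thrombospondin 1 and 2 bind CD36 and CD47 and are known as inhibitors of blood vessel growth, and thrombospondin 1 is also known to activate latent TGF-beta. Fibronectin, osteopontin and tenascin C bind integrins, osteopontin also binds CD44, and all of them are abundant in the stroma of many tumours. Periostin and the protein of Tgfbi share a family of fasciclin domains, and both genes are known to respond to TGF-beta. In tumours these genes are transcribed by fibroblasts and, for some of them, by macrophages and tumour cells.

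Each library held 37036772 to 43923565 counts, and the lowest count of any of the 9 genes in a library was 997. The first principal component of log2 CPM (each count over the TMM-scaled library total, times 1e6) parted the groups and held 55.2% of the variance, and along the second (13.8%) JagKO2 and JagKO3 lay at opposite ends (39.5 and -36.3). Jag2 itself had 1.02 to 1.52 CPM in Scramble and 0.514 to 1.11 CPM in JAG2KO, overlapping levels that do not check the labels, since an edited gene can still be transcribed. Of 10 lung epithelial markers, Nkx2-1, Sftpb and Sftpa1 were at 0 in every library and Epcam and Cdh1 reached at most 1.45 and 1.36 CPM, while the keratin gene Krt18 had 259 to 332 CPM. Its partner Krt8, the only one of these markers that was called, measured 119 to 128 CPM in Scramble and 3.17 to 4.71 CPM in JAG2KO (log2 fold change -4.90, adjusted p by edgeR = 1.72e-10).

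Promoter sequences from RefSeq (GRCm38.p6) were found for 7 of the 9 genes, and Thbs1 and Fn1 had no entry. The windows of the 5 genes that passed the test and had an entry are shown here because these genes moved between the groups, the first 3 downward and the last 2 upward. Each runs 5′ to 3′ for 250 bases up to the RefSeq start of the gene, except that of Tgfbi, which is shown for 187 bases, up to the start of the gene in GENCODE M21. Capitals mark exact matches, on either strand, to TATAAA, the letters of the TATA box, or to TGGGAA, the core bound by the Notch effector RBPJ.
Thbs2 (chr17:14694263-14694512, minus strand): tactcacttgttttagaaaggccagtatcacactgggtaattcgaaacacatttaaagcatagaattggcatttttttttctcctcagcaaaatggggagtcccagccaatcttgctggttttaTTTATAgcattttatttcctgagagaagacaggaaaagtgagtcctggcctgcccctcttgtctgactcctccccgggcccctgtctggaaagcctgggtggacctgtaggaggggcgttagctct
Tnc (chr4:64047016-64047265, minus strand): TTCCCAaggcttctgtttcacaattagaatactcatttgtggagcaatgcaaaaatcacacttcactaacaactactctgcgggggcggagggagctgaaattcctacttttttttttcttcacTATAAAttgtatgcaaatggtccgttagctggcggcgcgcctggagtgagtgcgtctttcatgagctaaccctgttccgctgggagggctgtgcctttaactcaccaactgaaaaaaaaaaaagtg
Spp1 (chr5:104434861-104435110, plus strand): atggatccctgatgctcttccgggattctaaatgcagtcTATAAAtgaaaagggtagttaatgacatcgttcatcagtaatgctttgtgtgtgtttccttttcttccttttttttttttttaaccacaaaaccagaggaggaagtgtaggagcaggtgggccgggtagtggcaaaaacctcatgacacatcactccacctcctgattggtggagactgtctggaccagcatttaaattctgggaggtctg
Postn (chr3:54360857-54361106, plus strand): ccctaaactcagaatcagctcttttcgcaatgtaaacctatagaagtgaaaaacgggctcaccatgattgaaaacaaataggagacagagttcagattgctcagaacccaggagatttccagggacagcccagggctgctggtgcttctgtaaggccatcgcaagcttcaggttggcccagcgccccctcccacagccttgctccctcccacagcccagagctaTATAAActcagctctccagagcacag
Tgfbi (chr13:56609336-56609522, plus strand): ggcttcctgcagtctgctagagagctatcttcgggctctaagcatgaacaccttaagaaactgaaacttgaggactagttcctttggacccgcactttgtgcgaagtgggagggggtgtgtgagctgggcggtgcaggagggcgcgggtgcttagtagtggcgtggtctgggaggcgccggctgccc
The TATAAA letters were in the windows of Thbs2, Tnc, Spp1 and Postn and not in those of Thbs3, Sparc and Tgfbi. The window of Sparc ends at a RefSeq start 3103 bases inside the gene as GENCODE M21 gives it, so it does not cover the bases before that outer start. Of all 32851 RefSeq promoter windows of the same length, 12.4% held them. In Postn they began 26 bases before the start, in Thbs2 and Tnc 126 bases and in Spp1 211 bases before it. The TGGGAA core was in the windows of Tnc and Thbs3, and 21.6% of all windows held it. Neither the AP-1 letters TGANTCA (6.75% of all windows) nor the TEAD letters GGAATG (12.6%) were in any of the 7 windows, and the motifs searched did not overlap in them. A match is only a run of letters, and the absence of one says nothing of a factor's binding elsewhere.

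The members moved in both directions in JAG2KO. Of the 9 genes, all passed the low-count filter, 4 were lower (Thbs2, Tnc, Spp1 and Fn1), 2 were higher (Postn and Tgfbi), and 3 did not pass the test (Thbs1, Thbs3 and Sparc). Calls are from edgeR's quasi-likelihood test with an adjusted p under 0.05 over all 16049 tested genes, of which 24.3% were called, 11.8% higher and 12.5% lower. The CPM values of the groups did not overlap for 7 of the 9 genes, against 40.3% of all tested genes. The median log2 fold change was -0.37 over the 9 genes and 0.00 over all tested genes. Since the 9 genes were chosen with earlier results of these data known, these comparisons cannot show an excess over all genes. In bulk RNA, fewer cells of a type and less RNA per cell cannot be told apart.

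**Figure D1:**
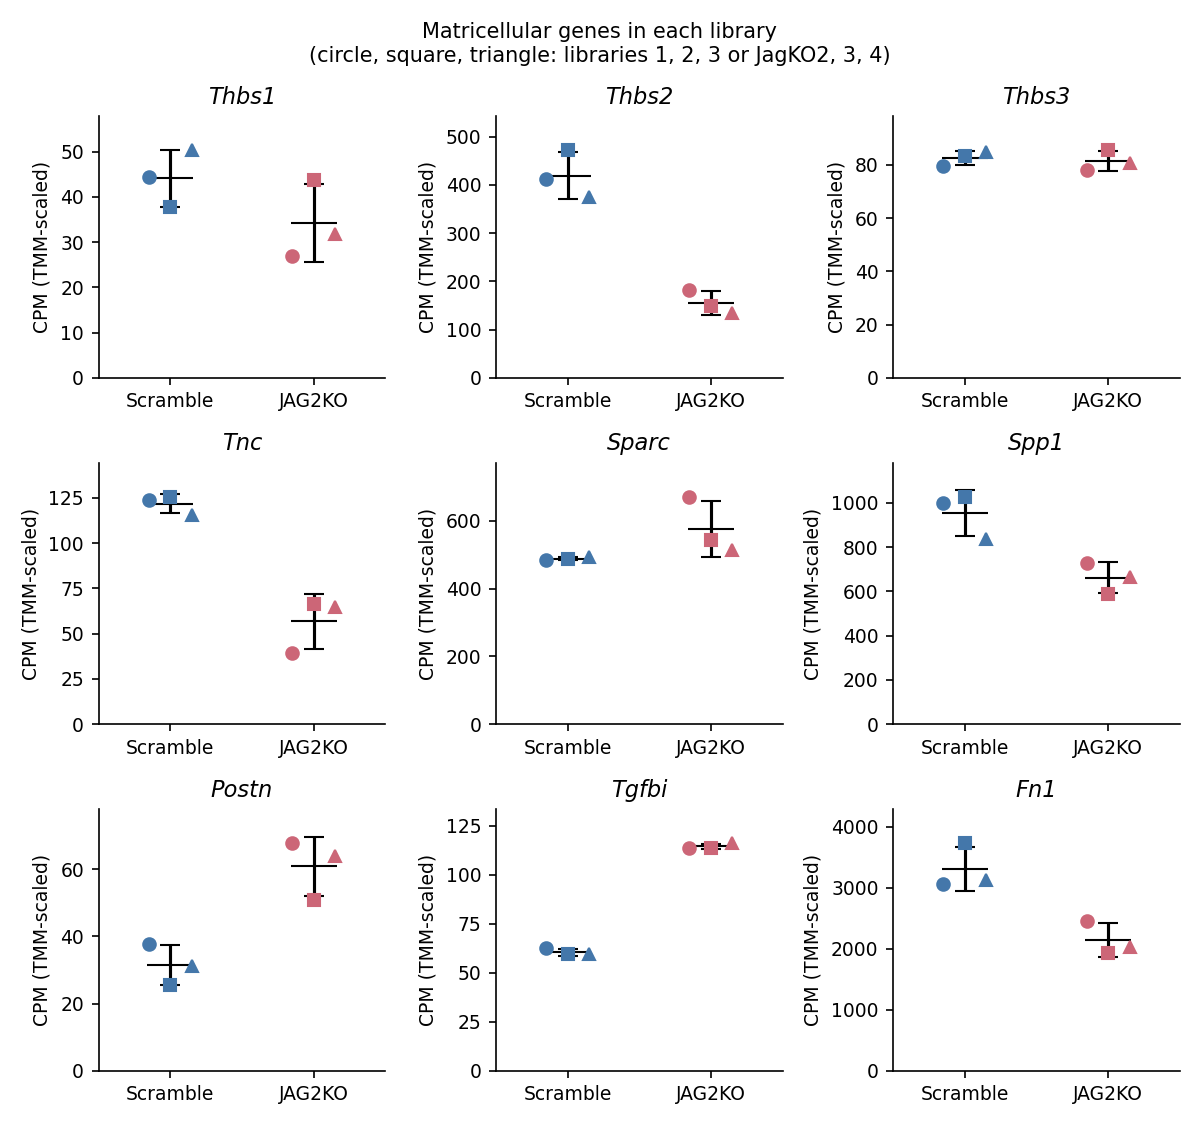
CPM of each of the 9 genes (vertical axes from 0) in 3 Scramble and 3 JAG2KO libraries. Points are libraries, bars are the mean ± SD. The groups overlap only for Thbs1 and Thbs3.

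Thbs2 had the largest change of the 9 genes, and it was the only thrombospondin gene of the 3 that passed the test. Thbs2 (ENSMUSG00000023885.9, minus strand of chromosome 17, 14665500 to 14694235 in GRCm38) measured 412 CPM in Scramble replicate 1, 471 CPM in replicate 2 and 374 CPM in replicate 3. Its level was 182 CPM in JagKO2, 150 CPM in JagKO3 and 135 CPM in JagKO4. Every JAG2KO library thus lay well below the lowest Scramble library. The log2 fold change of Thbs2 was -1.43 (SE 0.11, 95% interval -1.67 to -1.19, adjusted p by edgeR = 3.43e-06), so the JAG2KO level was 0.371 of that in Scramble. 

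Thbs1 and Thbs3 did not pass the test. Thbs1 (ENSMUSG00000040152.8, plus strand of chromosome 2, 118111876 to 118127133) measured 44.4, 37.7 and 50.3 CPM in the Scramble libraries and 27.0, 43.7 and 31.9 CPM in JagKO2, JagKO3 and JagKO4. JagKO3 reached into the Scramble range, and the other two JAG2KO libraries were below it. For Thbs1 the log2 fold change was -0.37 (SE 0.16, 95% interval -0.71 to -0.03, unadjusted p = 0.0352, adjusted p by edgeR = 0.108). Without JagKO3 it was -0.58 with an adjusted p by edgeR = 0.00737, so that 1 library decided the call. Thbs3 (ENSMUSG00000028047.11, plus strand of chromosome 3, 89215180 to 89226837), whose product forms pentamers where those of Thbs1 and Thbs2 form trimers, measured 79.7, 83.2 and 84.8 CPM in Scramble and 78.2, 85.4 and 80.6 CPM in the JAG2KO libraries. The groups lay within the same range, and the 95% interval of the log2 fold change of Thbs3 was -0.16 to 0.12. Thbs3 shares 318 bases of exon with Mtx1 on the opposite strand, which had a log2 fold change of 0.27 (adjusted p by edgeR = 0.0199). Reads there can be shared or lost, since no source used here gives the strand setting of the counting.

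Thbs2 was also set against Thbs1 within each library. Per kilobase of exon, Thbs2 stood at 8.05, 10.9 and 6.45 times Thbs1 in the Scramble libraries and at 5.85, 2.97 and 3.67 times in JagKO2, JagKO3 and JagKO4. The ranges of this ratio did not overlap, with Scramble replicate 3 and JagKO2 closest. The two-sided exact permutation p was 0.1, the smallest that 3 against 3 libraries allow, so this design cannot show a difference in the ratio at 0.05.

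Tnc, whose hexameric product modulates cell adhesion, fell most after Thbs2. Tnc (ENSMUSG00000028364.15, minus strand of chromosome 4, 63959785 to 64047015) measured 124, 126 and 116 CPM in the Scramble libraries. It measured 39.2 CPM in JagKO2, 66.2 CPM in JagKO3 and 64.8 CPM in JagKO4, so that JagKO2 was lowest and no library crossed between the groups. For Tnc the log2 fold change was -1.10 (SE 0.15, 95% interval -1.43 to -0.77, adjusted p by edgeR = 0.000277), and without JagKO2 it was -0.89 (adjusted p by edgeR = 4.69e-07).

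Fn1 and Spp1, the members with the highest counts, fell by smaller factors. Fn1 (ENSMUSG00000026193.15, minus strand of chromosome 1, 71585520 to 71653200), the gene of the adhesive glycoprotein that cells assemble into fibrils, measured 3067, 3729.6 and 3129 CPM in Scramble and 2454, 1936 and 2028 CPM in the JAG2KO libraries. All 3 JAG2KO libraries lay below all 3 Scramble libraries. Fn1 had a log2 fold change of -0.63 (SE 0.10, 95% interval -0.84 to -0.42, adjusted p by edgeR = 0.000563). Fn1 made up 57.8% to 61.7% of the summed CPM of the 9 genes in Scramble and 54.1% to 56.3% in JAG2KO. Together the 9 genes took 0.517% to 0.605% of the scaled library in Scramble and 0.358% to 0.436% in JAG2KO.

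Spp1 (ENSMUSG00000029304.14, plus strand of chromosome 5, 104435118 to 104441050), whose product is a secreted phosphoprotein and cytokine, measured 999.5, 1028 and 835 CPM in Scramble and 730.2, 589 and 667 CPM in the JAG2KO libraries. Its groups did not overlap, but Scramble replicate 3 and JagKO2 were the closest pair. Spp1 had a log2 fold change of -0.53 (SE 0.09, 95% interval -0.73 to -0.33, adjusted p by edgeR = 0.00149). Gm42793, a small gene model on the same strand that shares 309 bases of exon with Spp1, held 1141 counts over the 6 libraries against 199689 for Spp1. Spp1 is also a gene of tumour macrophages. In the same libraries the 14 macrophage markers summed to 50.6 to 60.6 CPM in Scramble and 89.1 to 109 CPM in JAG2KO, and their part in the level of Spp1 was not tested. The sort for GFP-positive, CD45-negative cells was aimed at tumour cells, and how far it removed macrophages was not tested. Of these markers 4 rose and 0 fell, beside 11.8% and 12.5% of all tested genes, 10 did not pass the test and none was at 0. Lyz2 made the largest part of their sum, with 21.3 ± 2.56 CPM in Scramble and 47.8 ± 5.73 CPM in JAG2KO (SD, n = 3).

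Postn and Tgfbi rose with similar log2 fold changes. Tgfbi (ENSMUSG00000035493.10, plus strand of chromosome 13, 56609523 to 56639562), which encodes an adhesion protein that binds collagens, measured 62.5, 59.4 and 59.6 CPM in Scramble and 114, 114 and 116 CPM in the JAG2KO libraries. Its libraries were tightly grouped, with an SD of 1.71 CPM in Scramble and 1.39 CPM in the JAG2KO libraries. The log2 fold change of Tgfbi was 0.92 (SE 0.06, 95% interval 0.79 to 1.05, adjusted p by edgeR = 8.83e-07). 

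Postn (ENSMUSG00000027750.16, plus strand of chromosome 3, 54361109 to 54391037), which encodes a protein of the matrix that stromal fibroblasts make, measured 37.8, 25.7 and 31.1 CPM in Scramble and 67.8, 50.9 and 64.0 CPM in the JAG2KO libraries. The groups did not overlap, and both were more spread than those of Tgfbi. This gave Postn a log2 fold change of 0.95 (SE 0.14, 95% interval 0.65 to 1.25, adjusted p by edgeR = 0.000391). Per kilobase of exon, Tgfbi stood at 3.82 to 5.35 times Postn in Scramble and at 3.88 to 5.15 times in JAG2KO, ranges that overlapped (two-sided exact permutation p = 0.8, smallest possible 0.1). Tnc stood at 3.67, 5.48 and 4.16 times Postn in Scramble and at 0.647, 1.46 and 1.13 times in JAG2KO, so that only in JagKO2 was Postn the higher of the pair per kilobase.

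Sparc, the gene of a collagen-binding counter-adhesive protein, did not pass the test. Sparc (ENSMUSG00000018593.13, minus strand of chromosome 11, 55394500 to 55423183) measured 484, 488 and 492 CPM in Scramble and 671, 544 and 513 CPM in the JAG2KO libraries. All JAG2KO libraries lay above the Scramble libraries, which were within a narrow range, and JagKO2 was the highest. This gave Sparc a log2 fold change of 0.24 (SE 0.09, 95% interval 0.05 to 0.43, unadjusted p = 0.0194, adjusted p by edgeR = 0.0699). It was 0.11 without JagKO2 (adjusted p by edgeR = 0.175) and 0.31 without JagKO4 (adjusted p by edgeR = 0.0345). Among the libraries left out, only JagKO4 changed the call.

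Fibroblast and pericyte markers summed higher in JAG2KO, as Postn did, and their part in the values of Postn and Sparc was not tested. The sort for GFP-positive cells was aimed at tumour cells, and how far it removed host cells of these types was not tested. The 15 markers summed to 4864 to 4941 CPM in Scramble and to 9790 CPM in JagKO2, 6628 CPM in JagKO3 and 6206 CPM in JagKO4, most of it from Col3a1. Of them 8 rose and 1 fell, beside 11.8% and 12.5% of all tested genes, 6 did not pass the test and none was at 0. The collagen gene Col1a1 had its highest level, 804 CPM, in JagKO2, as did Sparc, Postn and the pericyte marker Rgs5 (38.6 CPM). Fap, a gene of activated fibroblasts, went the other way, with 19.0 ± 1.11 CPM in Scramble against 3.61 ± 1.14 CPM in JAG2KO (SD, n = 3). Without JagKO2 the log2 fold change of Postn was 0.87 (adjusted p by edgeR = 0.000311). Endothelial markers, 13 in number, summed to 37.2 to 41.6 CPM in Scramble and 60.9 to 81.1 CPM in JAG2KO, with 7 higher, 0 lower, 6 not past the test and none at 0. The 8 markers of platelets, which store thrombospondin 1, summed to 5.19 to 5.65 CPM in Scramble and 5.38 to 9.77 CPM in JAG2KO. Only 4 of them were tested, with 1 higher, 0 lower and 3 not past the test. Gp1bb and Gp6 were at 0, but Gp1bb shares 1902 bases of exon with Sept5 on the same strand. Sept5 held 861 counts, and reads of Gp1bb may have been lost to this overlap. How far the same sort removed endothelial cells and platelets, and their part in the values of the 9 genes, was likewise not tested.

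**Figure D2:**
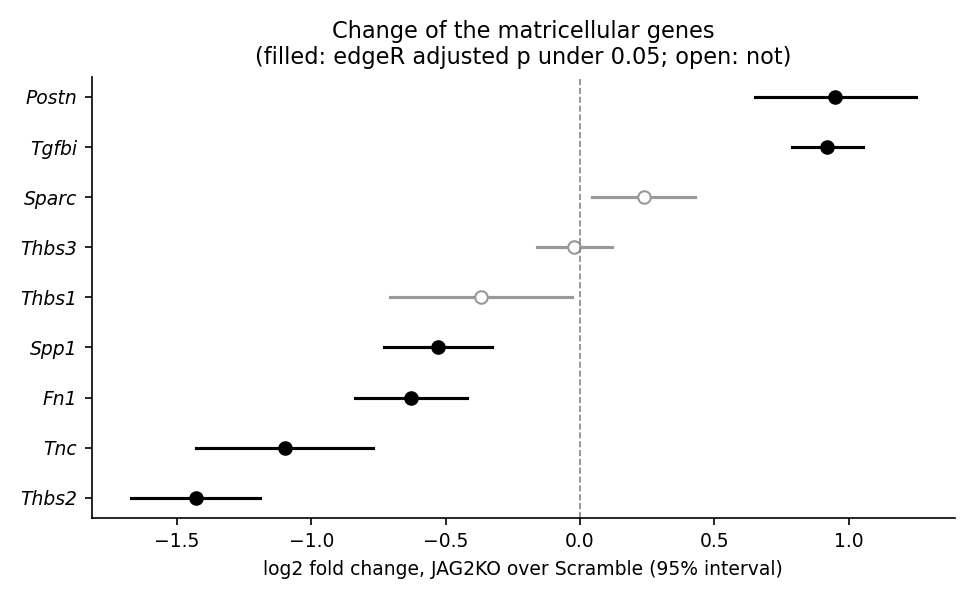
Log2 fold change (JAG2KO over Scramble, horizontal axis) of the 9 genes with its 95% interval. Filled points passed the edgeR test, from -1.43 for Thbs2 to 0.95 for Postn, and open points did not.

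Levels can be set against each other only per length, so CPM was divided by the kilobases of exon in GENCODE M21. On that scale Spp1 was highest in both groups, at 579 ± 63.2 CPM per kb in Scramble and 402 ± 43.0 CPM per kb in JAG2KO (SD, n = 3). Fn1 followed, at 283 ± 31.3 CPM per kb in Scramble and 183 ± 23.7 CPM per kb in JAG2KO, and then Sparc, at 129 ± 0.998 and 152 ± 22.1 CPM per kb. In Scramble the order went on with Thbs2, Thbs3, Tgfbi, Tnc, Thbs1 and Postn, and the ranges of Thbs3 and Tgfbi and of Tgfbi and Tnc overlapped. In JAG2KO it went on with Tgfbi, Thbs2, Thbs3, Tnc, Postn and Thbs1, and the ranges of Fn1 and Sparc, of Tnc and Postn and of Postn and Thbs1 overlapped. Within each JAG2KO library, though, Fn1 was above Sparc (210 against 177, 166 against 144 and 174 against 135 CPM per kb). Tgfbi thus passed Thbs2, which was at 59.8 ± 7.02 CPM per kb in Scramble and 22.2 ± 3.45 CPM per kb in JAG2KO, against 16.0 ± 0.453 and 30.4 ± 0.369 CPM per kb for Tgfbi.

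**Figure D3:**
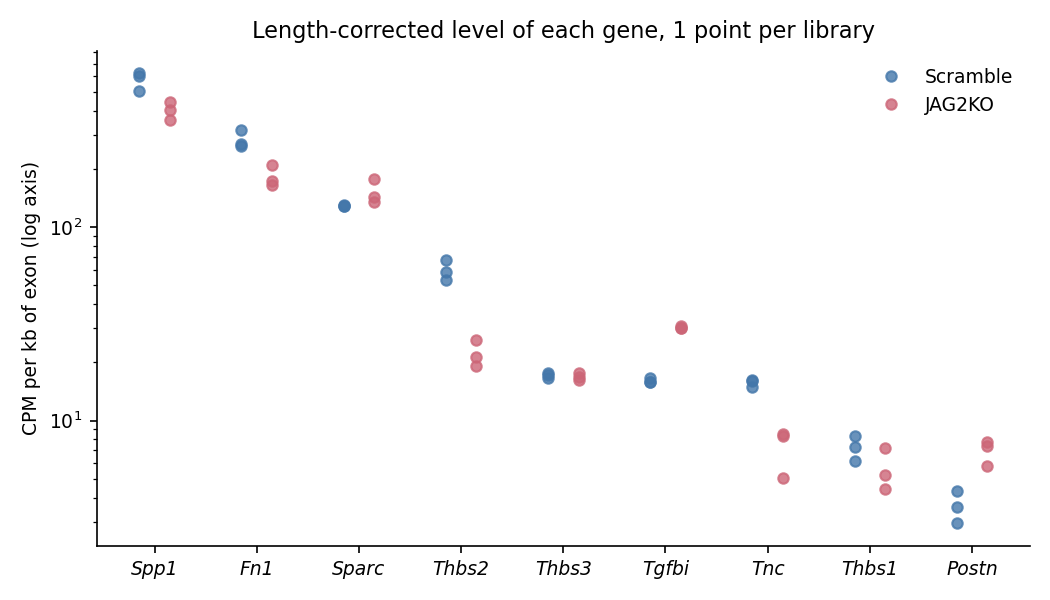
CPM per kb of exon (log axis) for each gene, 1 point per library, ordered by the Scramble mean. Thbs2 lies above Tgfbi in all Scramble libraries and below it in all JAG2KO libraries.

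Other genes of matricellular proteins were more often higher than lower. Of 33 listed genes 28 were tested, of which 11 rose, 4 fell and 13 did not pass the test. Their median log2 fold change was 0.44. Over all tested genes 11.8% rose, 12.5% fell and the median was 0.00. This list, like the receptor and TGF-beta lists below, was chosen with earlier results of these data known. Such counts therefore cannot show an excess over all genes. The testican gene Spock2, of the Sparc family, rose from between 1.38 and 1.63 CPM in the Scramble libraries to between 12.1 and 13.9 CPM in those of JAG2KO. Sparcl1 and Smoc1, 2 further relatives of Sparc, rose with log2 fold changes of 1.09 and 0.67 (adjusted p by edgeR = 0.000242 and 0.000264). Spon1, the gene of the thrombospondin-repeat protein F-spondin, rose from 3.02 ± 0.311 CPM to 13.1 ± 0.832 CPM (SD, n = 3). Among those that fell, the CCN family gene Ccn3 measured 8.52, 6.93 and 7.23 CPM in Scramble and 3.24, 1.20 and 1.20 CPM in the JAG2KO libraries, a log2 fold change of -2.01 (adjusted p by edgeR = 0.00104), or -2.65 without JagKO2. Fbln5 and Efemp2, fibulin genes of elastic fibre assembly, fell with log2 fold changes of -1.19 and -0.37 (adjusted p by edgeR = 0.00124 and 0.00145). The tenascin gene Tnr had 0.483 to 2.04 CPM in Scramble and 0.160 to 0.485 CPM in JAG2KO, overlapping levels (adjusted p by edgeR = 0.0301), and its call ended when Scramble replicate 1, Scramble replicate 2 or JagKO3 was left out (adjusted p by edgeR = 0.0828, 0.172 and 0.0843). Spock1 and Mepe were at 0 in every library.

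Receptor genes split evenly. Of 21 listed receptor and coreceptor genes 18 were tested, of which 5 rose, 5 fell and 8 did not pass the test, with a median log2 fold change of 0.08. Without Scramble replicate 2 or JagKO4, 3 fell. Over all tested genes 11.8% rose and 12.5% fell in the main fit. Itgb3, the beta chain of the integrin that binds osteopontin, fibronectin and thrombospondins with the alpha v chain, measured 11.4, 14.4 and 12.4 CPM in Scramble and 6.41, 4.66 and 6.26 CPM in the JAG2KO libraries. The gene of its partner chain, Itgav, had a log2 fold change of 0.05 (95% interval -0.08 to 0.18, adjusted p by edgeR = 0.604). Cd44, an osteopontin receptor gene, fell with a log2 fold change of -0.38 (adjusted p by edgeR = 0.00854). Calr, whose product on the cell surface binds thrombospondin 1, and the integrin gene Itga3 had log2 fold changes of -0.43 and -0.31 (adjusted p by edgeR = 0.00096 and 0.0172), and the call of Itga3 ended without Scramble replicate 2 or JagKO4 (adjusted p by edgeR = 0.0998 and 0.0835). The thrombospondin receptor gene Cd36 rose from 1.43 ± 0.553 CPM to 4.11 ± 0.269 CPM, while Cd47 measured 210 ± 24.5 CPM in Scramble and 217 ± 10.1 CPM in the JAG2KO libraries (SD, n = 3). Cacna2d1, whose product binds thrombospondins at synapses, and Stab1, a scavenger receptor gene for Sparc, rose with log2 fold changes of 1.32 and 1.67 (adjusted p by edgeR = 2.26e-06 and 1.13e-05). Stab1 and Cd36 are also genes of macrophages and endothelial cells, whose markers summed higher in JAG2KO as given above, and Stab1 shares 112 bases of exon with Nt5dc2 on the opposite strand, which held 11293 counts against 3663 for Stab1. Lrp1, an endocytic receptor gene for thrombospondins, rose by a log2 fold change of 0.37 (adjusted p by edgeR = 0.00327).

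Genes of TGF-beta activation and response moved both ways. Of 20 listed genes, all tested, 7 rose, 4 fell and 9 did not pass the test, with a median log2 fold change of 0.14. Without Scramble replicate 2 or JagKO4, 4 rose. In the main fit 11.8% of all tested genes rose and 12.5% fell. Pmepa1, a TGF-beta-induced inhibitor of the pathway, rose from 1.74 ± 0.141 CPM to 17.5 ± 1.24 CPM (SD, n = 3). Smad7, another induced inhibitor, had a log2 fold change of 0.81 (adjusted p by edgeR = 0.0106), or 0.79 without Scramble replicate 1 (adjusted p by edgeR = 0.0506). The groups of Smad7 overlapped, with JagKO2 at 61.8 CPM inside the Scramble range of 37.4 to 64.6 CPM. Ltbp2 and Ltbp4, genes of latent TGF-beta binding proteins, rose with log2 fold changes of 0.70 and 0.38 (adjusted p by edgeR = 0.00168 and 0.00575). The ligand gene Tgfb3 fell from 53.4 ± 3.51 CPM to 33.3 ± 3.30 CPM, and the receptor gene Tgfbr2 from 135 ± 5.03 CPM to 89.3 ± 14.8 CPM. Ltbp3 and Tgfbr1 had log2 fold changes of -0.29 and -0.32 (adjusted p by edgeR = 0.00836 and 0.0454), but the call of Tgfbr1 ended without Scramble replicate 1, Scramble replicate 2, JagKO3 or JagKO4 (adjusted p by edgeR = 0.0686 to 0.208). Tgfb1 had a log2 fold change of -0.10 (adjusted p by edgeR = 0.325).

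**Figure D4:**
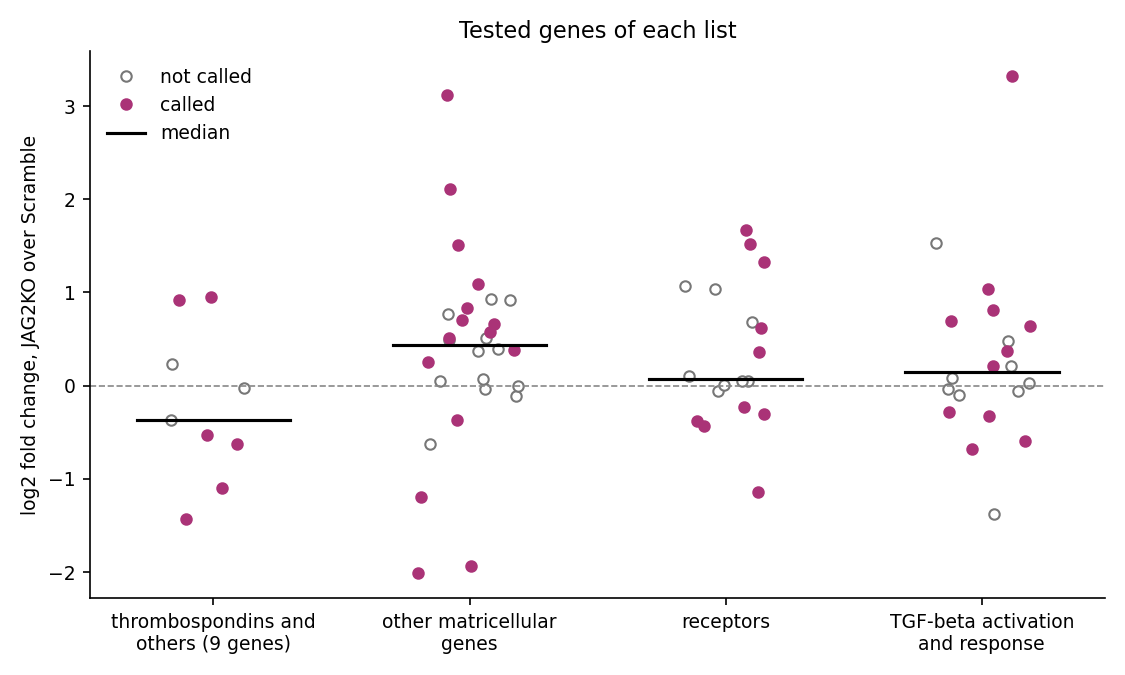
Log2 fold change (JAG2KO over Scramble, vertical axis) of the tested genes of each list, with the median as a line. The medians are -0.37 for the 9 genes, 0.44 for other matricellular genes, 0.08 for receptors and 0.14 for TGF-beta activation and response.

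Chromosomal neighbours were examined next, since adjacent genes can shift together. For each gene the 5 nearest tested genes on either side were read from GENCODE M21 positions. These 10 neighbours spanned from 89.3 kb around Thbs3 to 5291 kb around Fn1 and 6541 kb around Tnc. Their calls are to be read beside those of all tested genes, 11.8% higher and 12.5% lower. Around Thbs2, 0 of 10 neighbours rose and 1 fell, and its relative Smoc2, the next tested gene on one side, had a log2 fold change of -0.11. Around Fn1 1 neighbour rose and 0 fell, and around Tgfbi 1 rose and 0 fell. Around Postn 2 of 10 rose and 0 fell. Its chromosome 3 as a whole held 830 tested genes, of which 201 rose and 41 fell. Thbs3, on the same chromosome, had a log2 fold change of -0.02. The chromosome of Fn1 leaned the other way (87 of 1000 tested genes rose, 166 fell), as did that of Spp1 (86 of 1052 rose, 159 fell). The chromosome of Tgfbi held more genes that rose than fell (91 and 44 of 669 tested genes). On that of Thbs2 77 of 812 tested genes rose and 64 fell, and on that of Tnc 117 of 918 rose and 133 fell. The part of these chromosome-wide counts in the changes of the 9 genes was not tested. Spp1 lies close to Dmp1, a gene of a related mineral-binding protein, and to Sparcl1. Its neighbour Sparcl1 rose, Dmp1 did not pass the test (log2 fold change 0.37, adjusted p by edgeR = 0.519), and 2 of 10 neighbours rose and 2 fell. Among those that fell was Gm42793 (log2 fold change -1.42, adjusted p by edgeR = 0.000968), which shares exon bases with Spp1 as given above. Tnc stood apart in this respect. All 10 of its neighbours had log2 fold changes below 0, and 4 of them fell past the threshold, including Whrn and Akna with log2 fold changes of -5.67 and -0.85. Whether the fall of Tnc is part of a shift of that stretch of the chromosome was not tested.

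**Figure D5:**
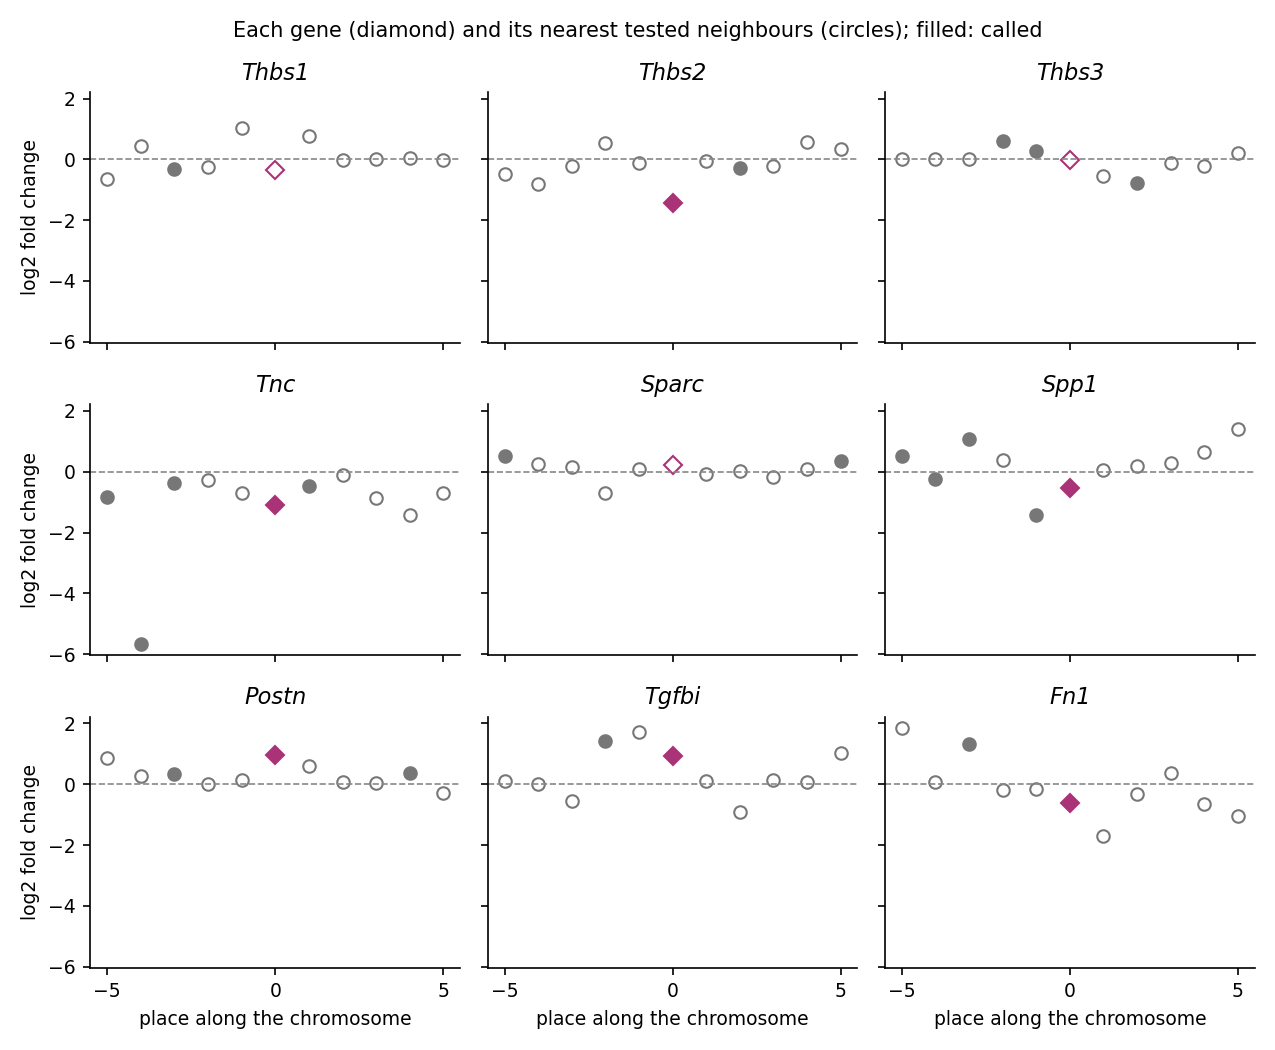
Log2 fold change (JAG2KO over Scramble, vertical axes) of each of the 9 genes (diamond) and of its 5 nearest tested genes on either side (circles), by place along the chromosome. Filled symbols passed the edgeR test, and all 10 circles around Tnc lie below 0.

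Genes with the most similar pattern over the 6 libraries were sought for Thbs2 and Tgfbi, which had the smallest p in each direction. Likeness was Pearson's r of log2 CPM over 6 libraries, among 8746 named genes with a mean of at least 10 CPM, and since the libraries fall into 2 groups it follows mainly the group difference. Closest to Tgfbi were Emp2, Ngef and Ankrd28 (r = 0.9995, 0.9988 and 0.9986), on chromosomes 16, 1 and 14. Closest to Thbs2 were the semaphorin gene Sema3a, Trabd and Pon3 (r = 0.9986, 0.9980 and 0.9975), on chromosomes 5, 15 and 6. An r of at least 0.95 was reached by 431 genes for Tgfbi and 450 for Thbs2, so these names mark the ends of long lists.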

How the data were processed

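PolyA RNA was sequenced from 6 libraries, 3 per group. The authors deposited 1 table of unnormalized whole-number counts for 55334 Ensembl gene IDs with versions. Per the submitters' processing notes, STAR 2.7.7a and HTSeq 0.11.2 were used. No source used here gives the build, annotation, strand setting or filters, so overlapping, antisense and paralogous genes can share or lose reads. Scramble columns match sample titles. The JAG2KO columns are numbered 2 to 4 where the titles run 1 to 3, so they were used by group alone.

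The test was the quasi-likelihood F test of edgeR 4.0.16 (R 4.3.3) after filterByExpr (minimum count 10, minimum total 15) and TMM scaling, with 4 residual degrees of freedom per gene. P-values were adjusted by Benjamini-Hochberg over all tested genes and called under 0.05. A standard error is the log2 fold change over the square root of F. Log2 CPM used a prior count of 2. At these depths 3 counts were worth 0.0680 to 0.0811 CPM. Symbols matched 55154 IDs, and positions and exon lengths are from GENCODE M21 (GRCm38), which may differ from the authors' annotation. Procedures were tested on simulated data. The chi-square between libraries of a group was 13.2 to 34.0 for each degree of freedom, above counting noise, so none was taken as a second deposit of another; repeat preparations of 1 tumour would not be seen by this check. Alternatives were RLE factors, library totals, no filter, CPM of at least 1 in 3 libraries, DESeq2 1.42.0, limma-voom (limma 3.58.1) and each library left out.

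The 9 genes and the lists were chosen with earlier results of these data known. Named genes are the 9, up to 4 called genes per direction and list with the smallest p, neighbours, the 3 genes most like Thbs2 and Tgfbi, and Jag2. Spock1, Mepe, Itgav, Cd47, Tgfb1 and the cell markers named fall outside that rule. So do genes given for their exon overlap (Mtx1, Gm42793, Nt5dc2, Sept5). All of these were chosen after their values were seen.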

Additional observations from a re-analysis of the deposited data

How the results depend on the processing

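The 6 called genes Thbs2, Tnc, Spp1, Fn1, Postn and Tgfbi kept their direction and their call under all 12 alternatives. Thbs1 passed without a low-count filter (log2 fold change -0.36) and without JagKO3, with a range of -0.58 to -0.27 when JagKO3, JagKO4 or a Scramble library was left out and -0.22 without JagKO2. Sparc passed without a low-count filter (log2 fold change 0.25), with DESeq2 (0.24) and without JagKO4, with a range of 0.11 to 0.31 over the left-out libraries. The unfiltered fit took in 29041 genes. In it the SE was 0.093 for Thbs1, against 0.155 in the main fit, and 0.071 for Sparc, against 0.088. The log2 fold changes of both hardly moved, so their passes without a filter go with smaller errors and not with larger changes. Thbs3 ranged from -0.0551 to 0.0084 over the left-out libraries, and only without JagKO2 was it above 0. Members called ranged from 2 to 3 higher and 4 to 5 lower over all alternatives. Calls over all genes ranged from 1356 to 1926 higher and 1349 to 2093 lower over the left-out libraries. Receptor genes called lower numbered 3 without Scramble replicate 2 or JagKO4, and TGF-beta genes called higher numbered 4 without either and 8 without JagKO2. With limma-voom Tnr lost its call (adjusted p = 0.0674). The median log2 fold change of all genes moved by less than 0.1 under every setting. No paired analysis was possible because the JAG2KO columns do not carry the replicate numbers of the labels.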
